A study of Mus musculus with 6 samples.

Results

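The 39 genes described here encode the machinery that folds proteins in the endoplasmic reticulum (ER), removes those that fail to fold, and senses how well both keep up. They were chosen by name and known role, with earlier results of these data known, and stand among 43074 gene symbols in the count table. They comprise 9 genes of the BiP and GRP94 chaperone system (Hspa5, Hsp90b1, Hyou1, Dnajb9, Dnajb11, Dnajc3, Sdf2l1, Manf and Creld2), the lectin chaperones Calr and Canx, and 9 disulfide isomerases and oxidases (P4hb, Pdia3, Pdia4, Pdia5, Pdia6, Txndc5, Erp44, Ero1a and Ero1b). The rest are the prolyl isomerase Ppib and the collagen chaperone Serpinh1, the translocon genes Sec61a1 and Sec61b, 11 genes of ER-associated degradation (ERAD; Edem1, Edem2, Edem3, Os9, Sel1l, Syvn1, Derl1, Derl2, Derl3, Herpud1 and Selenos), and the stress sensors Ern1, Eif2ak3 and Atf6 with the transcription factor gene Xbp1. Of the 39, 38 passed the filter on low counts. Derl3 did not, with 1 count in a single 4-PBA library and 0 counts in the other libraries.

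The cells were C2C12, an established wild-type mouse myoblast line from skeletal muscle that fuses into myotubes when serum is changed. Bulk RNA sequencing was done on 3 groups of 2 libraries each. Day 0 cells were untreated, and the other groups were differentiated for 4 days in medium containing horse serum, with DMSO as the vehicle or with 4-phenylbutyric acid (4-PBA) at 1 mM. 4-PBA is an aromatic fatty acid used in cell culture to ease ER stress and also known to inhibit histone deacetylases. No library of untreated day 4 cells or of 4-PBA without differentiation was analysed here, and the labels do not say whether the replicates of a group were separate cultures, so p-values measure only the spread between these libraries.

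Secretory and membrane proteins enter the ER through the Sec61 channel and fold with the help of BiP (Hspa5), GRP94 (Hsp90b1), lectins that read their sugars, and enzymes that form and shuffle disulfide bonds. Proteins that fail are trimmed, recognised and passed back through the membrane by the Sel1l and Syvn1 (HRD1) complex for destruction by the proteasome. When unfolded protein builds up, the sensors IRE1 (Ern1), ATF6 and PERK (Eif2ak3) start the unfolded protein response, in which ATF6 and spliced XBP1 raise chaperone and ERAD genes and PERK slows translation. Muscle cells remodel much of their ER into sarcoplasmic reticulum as they differentiate, and they secrete collagen, whose folding needs Serpinh1.

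Total counts ran from 47908926 to 74697397 per library, and the 39 genes took 0.840% to 0.896% of them. Mitochondrial transcripts took 3.14% to 3.43%. Levels are given as CPM, counts scaled to library size after normalisation. The summed CPM of 6 myotube markers was low at day 0 (88.2 and 83.5) and high in both day 4 groups (4588 and 4871 under DMSO, 4509 and 4610 under 4-PBA). That of 5 proliferation markers was 1583 and 1626, then 492.7 and 419.1, then 522.3 and 531.3. For 5 myoblast identity markers it was 1315 and 1328, then 2925 and 2882, then 2781 and 2790. From day 0 to DMSO Myf5 was called lower and Myod1, Cdh15, Des and Pax7 higher, by the test described below. Markers of immune, endothelial, epithelial and adipocyte cells summed to between 3.83 and 7.92 CPM over 13 genes in every library. The highest single value among them was 5.47 CPM, for Cd68, and no gene of the 13 was at 0 in all libraries.

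ATF6 and XBP1 are known to act through short DNA elements in promoters, so those of the 39 genes were searched for them. The ER stress element (ERSE) is CCAAT, 9 free bases and CCACG, written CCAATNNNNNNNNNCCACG. ERSE-II is ATTGGNCCACG and the unfolded protein response element (UPRE) is TGACGTGG. The letters CCACG are common to ERSE and ERSE-II, and UPRE holds them on its other strand. Each was searched on both strands from 250 bases before to 50 bases after the annotated start, in RefSeq sequences of build GRCm38.p6, which is not the build of the counts. Of the 39 genes, 34 had a sequence there, and Hyou1, Manf, Sec61a1, Derl1 and Atf6 had none. The matches below are read 5′ to 3′ in the direction of the motif, with the fixed letters in capitals and 8 bases on either side. They are shown for the chief chaperones and lectins and for the ERAD genes Syvn1 and Herpud1, the last of which holds an ERSE-II.
Hspa5, chr2:34772017-34772051, plus strand: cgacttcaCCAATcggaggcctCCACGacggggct
Hsp90b1, chr10:86705525-86705559, plus strand: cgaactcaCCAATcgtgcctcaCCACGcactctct
Hsp90b1, chr10:86705630-86705664, minus strand: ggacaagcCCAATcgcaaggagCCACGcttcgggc
Calr, chr8:84847067-84847101, plus strand: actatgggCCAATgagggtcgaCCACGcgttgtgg
Canx, chr11:50325792-50325826, minus strand: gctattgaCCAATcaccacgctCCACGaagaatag
Pdia6, chr12:17266483-17266517, plus strand: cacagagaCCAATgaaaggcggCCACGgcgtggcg
Dnajc3, chr14:118937819-118937853, plus strand: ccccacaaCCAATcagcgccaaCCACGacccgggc
Creld2, chr15:88819512-88819546, minus strand: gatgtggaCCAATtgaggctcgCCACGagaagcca
Syvn1, chr19:6046524-6046558, plus strand: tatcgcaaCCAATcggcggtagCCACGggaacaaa
Herpud1, chr8:94386369-94386395, plus strand: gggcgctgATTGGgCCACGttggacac

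An exact ERSE lay in the window of 10 of the 34 genes (29.4%). Among all 27025 genes with a RefSeq window, these included, 37 had one (0.137%), and among 12189 tested genes 23 (0.189%). The list was chosen to hold genes of the kind that ATF6 and XBP1 are known to raise, so these shares are a description and no test. The 10 were Hspa5, Hsp90b1, Calr, Canx, Creld2, Dnajc3, Pdia6, Syvn1, Ero1b and Derl3, and Hsp90b1 held 2 matches. ERSE-II was found in Herpud1 and Dnajb11, 5.88% of the 34 against 0.0444% of all genes, and UPRE in Txndc5 alone, 2.94% against 0.714%. The Hspa5 match began 65 bases before the start and the Syvn1 match 44 bases before it, while the matches of Calr and Ero1b lay farther out, beginning 162 and 201 bases before it. The Dnajb11 match lay after the annotated start. A match describes these letters and is no evidence that a factor binds there, and no factor's binding was measured.

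**Figure D1:**
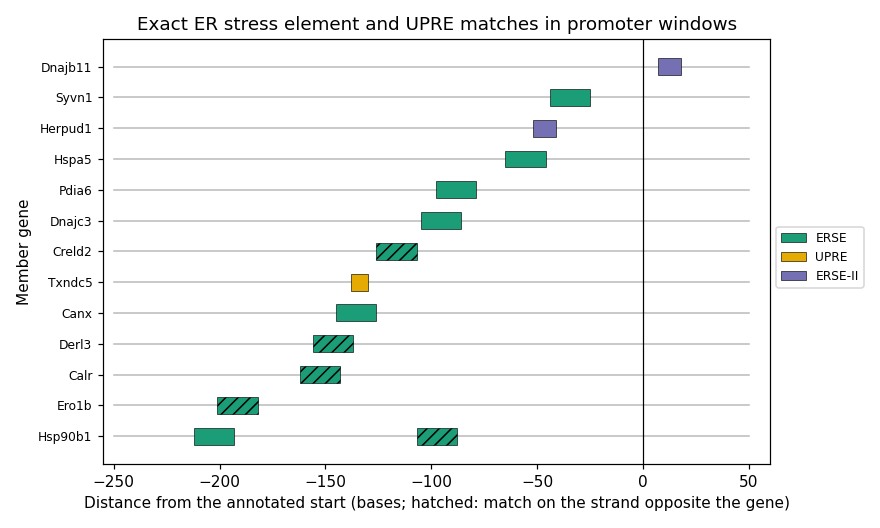
Positions of exact motif matches in the promoter window of each gene that has one, as distance in bases from the annotated start (0, vertical line). Boxes are coloured by motif and hatched where the match is on the strand opposite the gene; the ERSE matches all begin between 212 and 44 bases before the start.

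Levels differed widely between the genes when CPM was divided by transcript length in kilobases (CPM per kb, from the longest principal coding transcript in GENCODE M21). At day 0 Hsp90b1 stood highest at 419 ± 16.6 CPM per kb (SD, n = 2, as for all values that follow with ±). Serpinh1 and Calr came next at 349 ± 3.85 and 340 ± 8.72 CPM per kb and did not differ beyond their spread. P4hb, whose product is protein disulfide isomerase, followed at 252 ± 2.65 and Hspa5 at 239 ± 5.96 CPM per kb. At the other end stood Eif2ak3 at 9.28 ± 0.209, Ern1 at 8.19 ± 0.147 and the BiP co-chaperone Dnajb9 at 7.53 ± 0.120 CPM per kb. The oxidase Ero1b was lowest of the tested genes at 2.12 ± 0.157 CPM per kb. With DMSO at day 4 the first place went to Serpinh1, at 463 ± 8.09 against 321 ± 2.44 CPM per kb for Hsp90b1, and with 4-PBA the order of the first 10 genes was the same as with DMSO.

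Setting vehicle cells of day 4 against day 0 asks how this machinery stood after differentiation in vehicle. Most ERAD genes, 3 of the 4 genes of the sensor group and the collagen chaperone gene Serpinh1 rose, while Hsp90b1, both lectin genes, most disulfide genes and both translocon genes fell. Hspa5, which encodes BiP, did not pass the test. Of the 38 genes tested, 14 rose and 17 fell (31 called, 81.6%), at a Benjamini-Hochberg adjusted p under 0.05 over all 17433 tested genes in edgeR's quasi-likelihood test. Among all genes 66.3% were called, 33.8% higher and 32.6% lower. The median size of the log2 fold change was 0.19 over the 38 and 0.48 over all tested genes, and the signed medians were -0.042 and 0.023. Values of the 38 ran from -0.71 to 0.88. The tested genes were not matched to the 38 for level, and values of genes with few counts scatter more. In bulk RNA a smaller number of cells of one type and less RNA per cell cannot be told apart. The myotube, proliferation and myoblast identity marker sums given above moved with the same groups, and their part in these results was not tested.

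**Figure D2:**
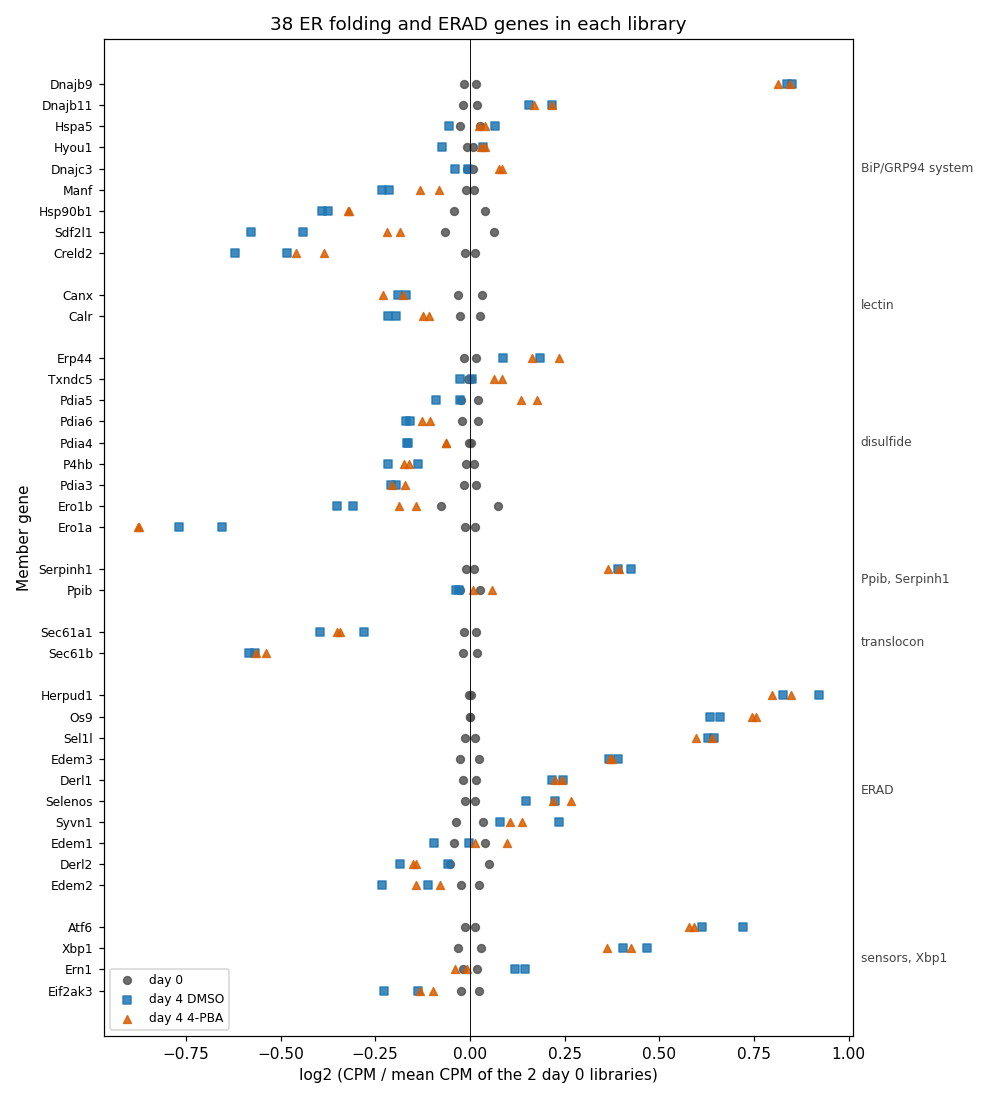
Each library's level of the 38 tested genes, as log2 of its CPM over the mean CPM of the 2 day 0 libraries (x axis), grouped by role. Grey circles are day 0, blue squares DMSO and orange triangles 4-PBA at day 4; the blue and orange symbols lie together and away from the grey for genes such as Dnajb9, Sel1l and Sec61b.

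In the BiP and GRP94 system 2 genes rose, 4 fell and 3 were not called. Hspa5, the ER Hsp70 and the usual first marker of the unfolded protein response, was at 860 and 891 CPM at day 0, 917 and 843 under DMSO, and 891 and 900.0 under 4-PBA. The DMSO libraries enclosed all the others. Its log2 fold change was 0.0065 (SE 0.032, 95% interval -0.060 to 0.073, adjusted p = 0.871 in edgeR), inside a 1.2-fold band in either direction. Without DMSO replicate 2 the value was 0.065 (adjusted p = 0.0304), still within that band. Hsp90b1, the ER Hsp90 that folds integrins and Toll-like receptors among others, was at 1150 and 1217 CPM at day 0, 913 and 903 under DMSO, and 947 and 949 under 4-PBA. It fell by 0.38 on the log2 scale (SE 0.028, adjusted p = 3.42e-14), with no overlap between day 0 and either day 4 group.

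Creld2, which encodes a small secreted ER stress protein, was at 77.8 and 79.3 CPM at day 0, 56.2 and 51.1 under DMSO, and 57.1 and 60.2 under 4-PBA, a log2 fold change of -0.55 (SE 0.047, adjusted p = 1.48e-12) for DMSO over day 0. Sdf2l1, a partner of BiP and its J-domain proteins, was at 21.5 and 23.5 CPM, then 15.1 and 16.6, then 19.3 and 19.8. It fell by 0.51 with DMSO (SE 0.074, adjusted p = 1.94e-07), and each group of libraries stood clear of the other groups. Manf, a secreted ER protein that binds BiP, fell by 0.22. The J-domain co-chaperone Dnajb9 (ERdj4), which brings BiP to IRE1 and also serves ERAD, went the other way. It was at 18.3 and 18.7 CPM at day 0, 33.1 and 33.4 under DMSO, and 32.6 and 33.3 under 4-PBA, a rise of 0.84 (SE 0.061, adjusted p = 1.86e-14) to well above both day 0 libraries. Dnajb11 rose by 0.19. Hyou1, which exchanges nucleotide on BiP, and Dnajc3 were not called, at -0.019 and -0.023, with intervals inside the 1.2-fold band. Summed over the 9 genes, the level went from 2693 ± 76.8 to 2397 ± 69.7 CPM. Most of that fall was in Hsp90b1, from 1184 ± 46.9 to 908 ± 6.88 CPM, and the median log2 fold change of the 9 was -0.023.

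Both lectin chaperones fell: calreticulin (Calr) by 0.21 and calnexin (Canx) by 0.18. Calr has a named pseudogene in the annotation, so its counts are uncertain to that extent. Of the 9 disulfide genes 6 fell, 1 rose and 2 were not called. The isomerases P4hb, Pdia3, Pdia4 and Pdia6 fell by 0.18, 0.20, 0.17 and 0.16. Ero1a, the oxidase that recharges protein disulfide isomerase and a known hypoxia target, was at 85.3 and 86.8 CPM at day 0, 54.6 and 50.5 under DMSO, and 46.9 and 47.0 under 4-PBA. Its log2 fold change of -0.71 (SE 0.046, adjusted p = 5.37e-16) was the largest fall among the 38. Ero1b fell by 0.32, though not without day 0 replicate 1 (-0.26, adjusted p = 0.0937). Erp44, which retains the oxidases in the ER, rose by 0.14, a call lost without day 0 replicate 2 (adjusted p = 0.0716) or DMSO replicate 2 (0.088, adjusted p = 0.129). Pdia5 and Txndc5 were not called, at -0.059 and -0.0097.

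Ppib was not called at -0.033, while Serpinh1, the chaperone dedicated to collagen, rose by 0.41 (SE 0.028, adjusted p = 2.18e-15) from 793 ± 8.75 to 1053 ± 18.4 CPM. Both translocon genes fell. Sec61b, the small subunit of the channel, was at 56.5 and 58.0 CPM at day 0, 38.6 and 38.2 under DMSO, and 38.7 and 39.4 under 4-PBA, a fall of 0.58 (SE 0.049, adjusted p = 9.33e-13). Sec61a1, which encodes the pore, fell by 0.34. Neither day 4 group reached a day 0 library for either gene.

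In ERAD 7 of 10 tested genes rose, 2 fell and 1 was not called, and the summed level went from 782 ± 6.25 to 987 ± 14.5 CPM. Herpud1, a membrane protein that gathers the HRD1 complex, had the largest rise of the 38. It was at 46.6 and 46.5 CPM at day 0, 82.6 and 88.3 under DMSO, and 83.8 and 81.0 under 4-PBA, a log2 fold change of 0.88 (SE 0.044, adjusted p = 6.50e-19). Os9, a lectin that hands trimmed glycoproteins to Sel1l, was at 89.2 and 89.3 CPM, then 141 and 138, then 149 and 151, a rise of 0.65 (SE 0.035, adjusted p = 3.87e-18). Sel1l, the scaffold of the complex, was at 111 and 109 CPM, then 172 and 170.0, then 171 and 166, a rise of 0.64 (SE 0.034, adjusted p = 3.06e-18). For these 3 genes every day 4 library lay above both day 0 libraries.

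Among the other ERAD genes the mannosidase-like Edem3 rose by 0.38, the membrane protein Derl1 by 0.23, Selenos by 0.19 and the ubiquitin ligase gene Syvn1 by 0.16. Edem2 fell by 0.17 and Derl2 by 0.12, and Edem1 was not called at -0.051. The smaller of these calls rested on single libraries. Syvn1 was not called without day 0 replicate 1 (0.12, adjusted p = 0.0893) or DMSO replicate 1 (0.079, adjusted p = 0.161). Derl2 was not called without day 0 replicate 2 (-0.065, adjusted p = 0.380) or DMSO replicate 2 (-0.062, adjusted p = 0.314), nor Edem2 without day 0 replicate 1 (adjusted p = 0.0577) or DMSO replicate 2 (-0.11, adjusted p = 0.105).

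Of the sensors with Xbp1, 3 rose and 1 fell. Atf6, whose product is cut in the Golgi to release a transcription factor, was at 118 and 116 CPM at day 0, 179 and 193 under DMSO, and 176 and 175 under 4-PBA. Its rise of 0.67 (SE 0.036, adjusted p = 3.63e-18) left no overlap with day 0. Xbp1 was at 104 and 108 CPM, then 147 and 140.5, then 143 and 136, a rise of 0.44 (SE 0.037, adjusted p = 8.45e-13). These counts do not separate spliced from unspliced Xbp1. Ern1, which encodes the sensor IRE1 that splices it, was at 56.2 and 57.6 CPM, then 62.9 and 61.8, then 55.4 and 56.6, a rise of 0.13 with DMSO (SE 0.045, adjusted p = 0.0106) that was lost without day 0 replicate 1 (0.11, adjusted p = 0.102). Eif2ak3, which encodes PERK, was at 42.5 and 41.2 CPM, then 35.8 and 38.04, then 39.1 and 38.2, and fell by 0.18 with DMSO (SE 0.053, adjusted p = 0.00318). Sensor transcripts are not a measure of sensor activity, which was not measured.

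**Figure D3:**
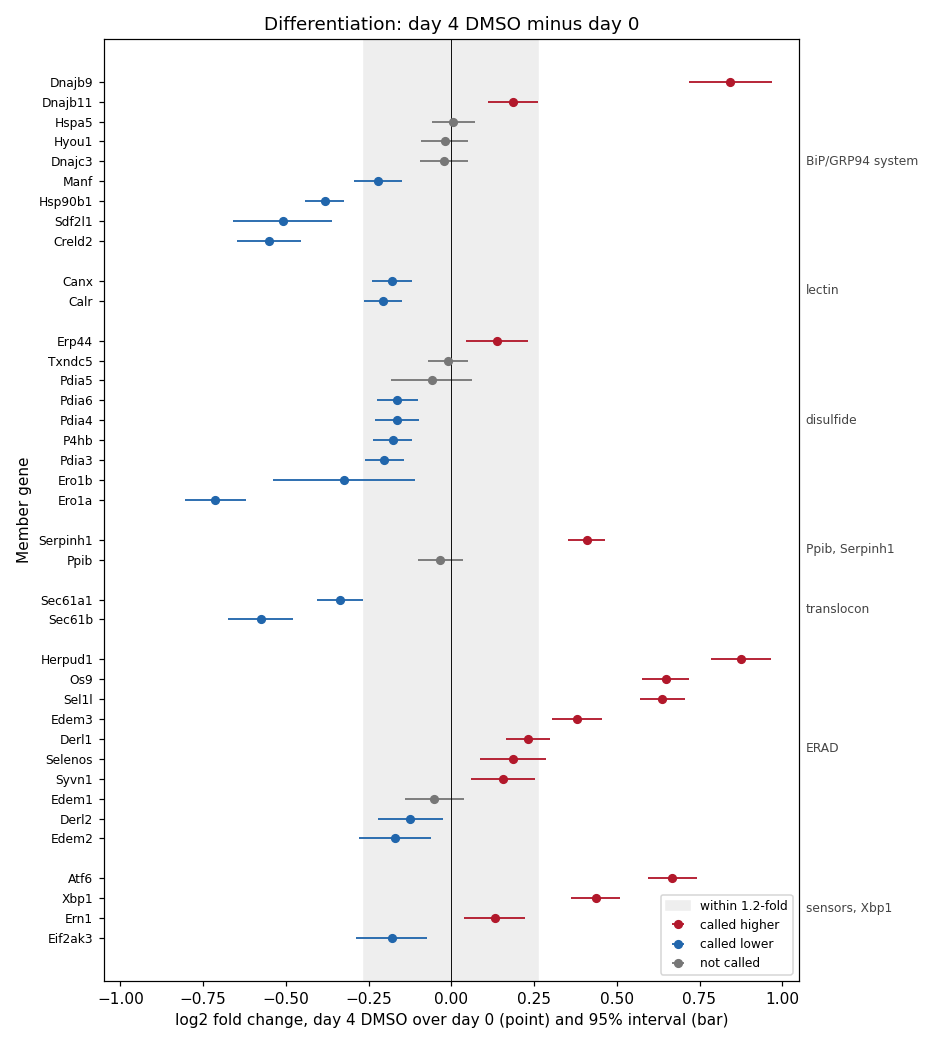
Log2 fold change of each gene, DMSO at day 4 over day 0 (point), with its 95% interval (bar), by role. Red marks called rises, blue called falls and grey no call, and the shaded band is 1.2-fold in either direction; Herpud1 at 0.88 and Ero1a at -0.71 are the extremes, and the interval of Hspa5 lies across 0.

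The genes with an ERSE or ERSE-II match did not share one direction in this comparison. Of 11 tested, 3 rose (Herpud1, Dnajb11 and Syvn1), 6 fell (Hsp90b1, Calr, Canx, Creld2, Pdia6 and Ero1b), and Hspa5 and Dnajc3 were not called, with a median log2 fold change of -0.16. Of the 22 tested genes with a promoter sequence and no such match, 9 rose, 9 fell and 4 were not called.

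Setting 4-PBA against vehicle at day 4 asks what the compound added over 4 days of differentiation, and the shifts in these genes were small. Sdf2l1 and Pdia5 were higher with 4-PBA, and Ero1a and Ern1 were lower; these 4 of 38 (10.5%) were called by the same test, against 4.9% of all genes. The 2 higher stand beside 2.13% of all genes called higher and the 2 lower beside 2.78% called lower. With DESeq2 size factors 6 of the 38 were called, 4 of them higher, and with library size only 8, 6 of them higher; over all genes 371 of 855 called were higher, and 397 of 861 and 461 of 896 under these scalings. The median log2 fold change was 0.036 over the 38 and 0.0021 over all tested genes, with 25 of the 38 above 0 and 13 below, and the range was -0.16 to 0.31. In size the median was 0.059 against 0.094 over all genes. The 95% interval of 35 of the 38 lay inside the 1.2-fold band, as did that of 47.5% of all tested genes. Here too the tested genes were not matched to the 38 for level. The proliferation marker sum given above was also higher in both 4-PBA libraries than in both DMSO libraries, as was the proliferation marker Ccna2 by the test (0.21, adjusted p = 0.0320). Of the 6 myotube markers 3 were called lower with 4-PBA, Tnnt1 (-0.25, adjusted p = 0.000216), Mymk (-0.17, adjusted p = 0.0134) and Acta1 (-0.094, adjusted p = 0.0450), and of the 5 myoblast identity markers Des was lower (-0.11, adjusted p = 0.00881) and Cdh15 higher (0.11, adjusted p = 0.0171). The part of these markers in the results was not tested.

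Sdf2l1 rose, with a mean of 15.8 ± 1.06 CPM under DMSO and 19.6 ± 0.328 CPM under 4-PBA and a log2 fold change of 0.31 (SE 0.074, interval 0.15 to 0.46, adjusted p = 0.00979), and its 4-PBA libraries lay between those of DMSO and day 0. Pdia5, a disulfide isomerase that has been tied to ATF6 activation, was at 27.4 and 28.2 CPM at day 0, 27.3 and 26.1 under DMSO, and 31.4 and 30.5 under 4-PBA. Both 4-PBA libraries stood above the other 4, and the change over DMSO was 0.21 (SE 0.060, interval 0.093 to 0.34, adjusted p = 0.0285). Ero1a fell further, from 52.6 ± 2.93 with DMSO to 46.9 ± 0.0846 CPM, a change of -0.16 (SE 0.047, interval -0.26 to -0.068, adjusted p = 0.0338). Ern1 fell from 62.3 ± 0.833 to 56.0 ± 0.892 CPM, a change of -0.15 (SE 0.045, interval -0.25 to -0.064, adjusted p = 0.0352). Its 4-PBA libraries overlapped those of day 0. The DMSO and 4-PBA libraries of these 4 genes did not overlap, which is no further support, since the test on the same libraries picked them. Nor did those of several genes not called, such as Hsp90b1, Manf, Calr and Pdia4.

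Each of the 4 calls depended on the libraries used. Without either 4-PBA library no member was called in edgeR, though 9 and 12 had an unadjusted p under 0.05 without replicates 1 and 2, against 14 with all libraries, and 341 and 295 genes of the whole table were still called. Without DMSO replicate 1, the median log2 fold change of the members was 0.048, beside 0.036 with all libraries. Of the 4 genes, Pdia5 alone kept its call there, while Sdf2l1 (0.24), Ern1 (-0.14) and Ero1a (-0.11) lost theirs. The members newly called there were higher with 4-PBA, among them Creld2 (0.20) and Hspa5 (0.086), except Atf6 (-0.14), which was lower. Without DMSO replicate 2, 3 were called and Pdia5 was lost (0.18, adjusted p = 0.124). Ern1 and Ero1a also lost their calls without either day 0 library, though their values stayed near -0.15 and -0.16. The day 0 libraries are not compared here but enter the filter, the scaling, the estimate of the spread and the adjustment. The DESeq2 Wald test called 3 (Sdf2l1, Pdia5 and Calr).

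The other chaperones and enzymes were not called, though 10 of the 34 genes not called had an unadjusted p under 0.05 in edgeR. Over all 38 genes 14 had such a p, 11 of them higher and 3 lower. The share of all tested genes with such a p is not given here, so these counts have no background beside them. Hspa5 stood at 0.026 (SE 0.032, interval -0.041 to 0.092, adjusted p = 0.783), Hsp90b1 at 0.062 (adjusted p = 0.255) and Creld2 at 0.13 (adjusted p = 0.121). Nearest to the threshold were Manf at 0.12 (adjusted p = 0.0519), Calr at 0.091 (adjusted p = 0.0563), Pdia4 at 0.10 (adjusted p = 0.0648) and Os9 at 0.10 (adjusted p = 0.0771). Of the 34 genes not called, 33 had intervals within the 1.2-fold band. The exception was Ero1b, the least abundant, at 0.16 with an interval from -0.051 to 0.38.

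By role, 1 of 9 genes of the BiP and GRP94 system was called and 2 of 9 disulfide genes. With all libraries and TMM scaling no ERAD gene of the 10 tested was called in edgeR, 2 had an unadjusted p under 0.05, and the median was -0.0021; the DESeq2 Wald test called none either. Os9 was called with library size only (adjusted p = 0.0443), and Os9 (adjusted p = 0.0458) and Edem1 (0.15, adjusted p = 0.0296) were called without DMSO replicate 1. Os9, Sel1l and Herpud1 stood at 0.10, -0.020 and -0.053. No lectin gene was called in edgeR with these settings, where Calr had an unadjusted p under 0.05. Calr passed under DESeq2 size factors (adjusted p = 0.0435), with library size only (adjusted p = 0.0222), without DMSO replicate 1 (adjusted p = 0.0115) and by the DESeq2 Wald test (adjusted p = 0.0318). For the translocon pair and for Ppib with Serpinh1, no gene was called by either tool and 0 had an unadjusted p under 0.05. Of the sensors with Xbp1, Ern1 alone was called, while Atf6, Xbp1 and Eif2ak3 stood at -0.083, -0.043 and 0.066. The 4 called genes had promoter sequences without an exact ERSE, ERSE-II or UPRE match. Most tested members with a promoter sequence had no ERSE or ERSE-II either, 22 beside 11 with one, so this sets the 4 little apart.

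**Figure D4:**
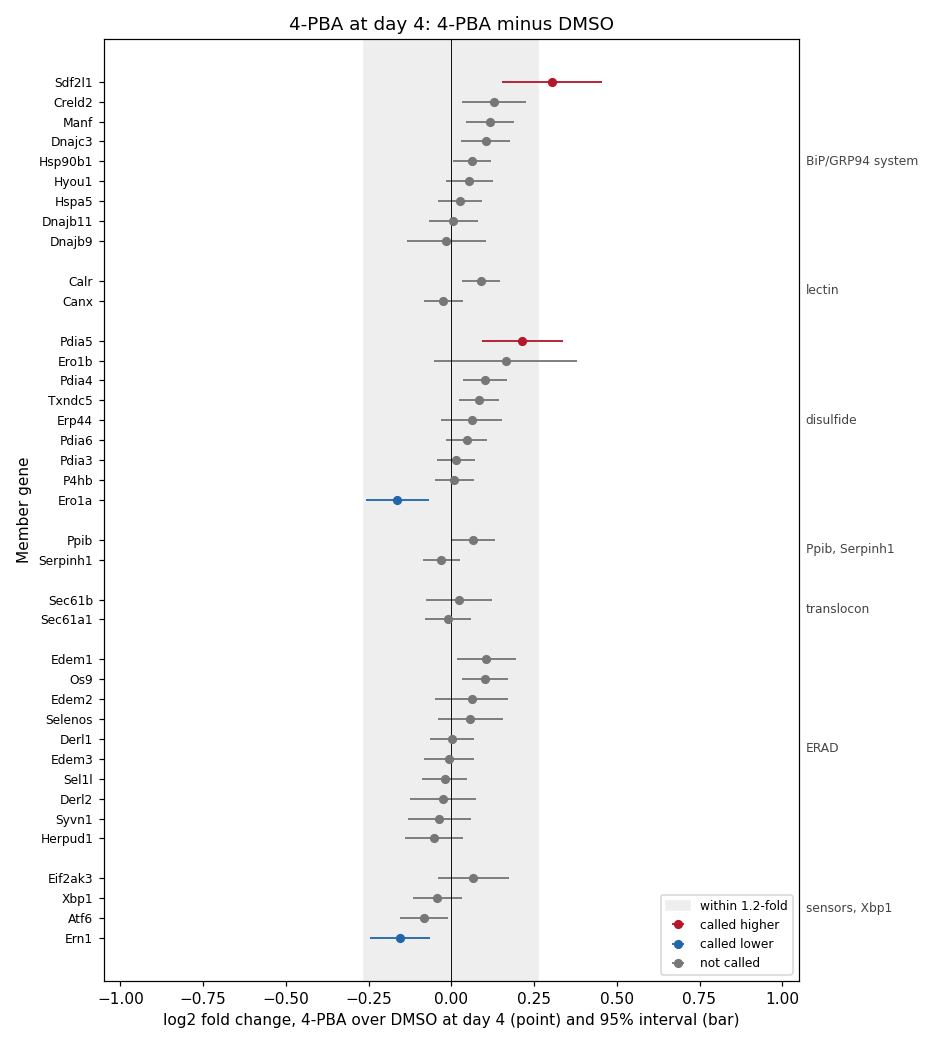
Log2 fold change of each gene, 4-PBA over DMSO at day 4 (point), with its 95% interval (bar), on the same axis as the differentiation plot. Sdf2l1 at 0.31 and Pdia5 at 0.21 are the called rises (red), Ero1a at -0.16 and Ern1 at -0.15 the called falls (blue), and most other intervals lie within the shaded 1.2-fold band.

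Set against day 0, the 4-PBA libraries repeated the comparison with the same day 0 libraries as the DMSO comparison, so the 2 are not independent. Of the 38, 16 rose and 13 fell (76.3%), beside 65.6% of all genes, 33.2% higher and 32.4% lower. The largest fall was again Ero1a at -0.88 (adjusted p = 2.41e-18), beside -0.71 with DMSO. Sec61b stood at -0.55, Creld2 at -0.42, Sec61a1 at -0.35 and Hsp90b1 at -0.32. The largest rises were Dnajb9 at 0.83, Herpud1 at 0.82 and Os9 at 0.75, followed by Sel1l at 0.62, Atf6 at 0.59, Xbp1 at 0.39 and Serpinh1 at 0.38.

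Among the genes that 4-PBA moved against DMSO, Sdf2l1 was 0.20 lower than day 0 (log2 fold change -0.20, adjusted p = 0.0143), where with DMSO it was -0.51. That call was lost without day 0 replicate 2 (adjusted p = 0.236) or 4-PBA replicate 1 (adjusted p = 0.0961). Pdia5 was higher than day 0 by 0.15 (adjusted p = 0.0242), where with DMSO it was not called, and this call was lost without day 0 replicate 1 (adjusted p = 0.143) or 4-PBA replicate 1 (adjusted p = 0.130). Ern1 was not called at -0.024 (adjusted p = 0.665), where with DMSO it rose by 0.13. Hspa5 was not called at 0.032 (adjusted p = 0.399), nor Eif2ak3 at -0.11 (adjusted p = 0.0577), which was called without either DMSO library (adjusted p = 0.0347 and 0.0351). Scaling by library size alone turned the split to 13 higher and 16 lower of 29 called.

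The PERK branch gives its output through Atf4 and the genes downstream of it, of which 7 of a list of 8 were tested. Ddit3 was not analysed here. PERK activity was not measured, so shifts in these genes cannot be assigned to it. From day 0 to DMSO 3 rose and 2 fell, where 66.3% of all tested genes were called. Ppp1r15a (GADD34, which restores translation) rose by 0.72, Trib3 by 0.41 and Atf3 by 0.80, while Atf4 fell by 0.12 and the asparagine synthetase gene Asns by 0.20. Chac1 and Sesn2 were not called at 0.072 and -0.14, but Chac1 was without DMSO replicate 2 (0.16, adjusted p = 0.0422) and Sesn2 without DMSO replicate 1 (-0.24, adjusted p = 0.00281). The Atf3 call was lost without any of the 4 libraries compared (adjusted p = 0.129 to 0.189), and the Atf4 call without day 0 replicate 2 (adjusted p = 0.0729) or DMSO replicate 2 (-0.046, adjusted p = 0.199).

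With 4-PBA against DMSO 3 of these 7 were lower and 0 higher by edgeR, where 2.78% of all tested genes were lower and 2.13% higher. Trib3, a pseudokinase gene, was at 25.7 and 22.0 CPM with DMSO and 20.96 and 17.7 with 4-PBA (-0.30, adjusted p = 0.0263). Sesn2, a stress-induced inhibitor of mTORC1 signalling, was at 28.7 and 24.9 and then 21.3 and 23.6 CPM (-0.26, adjusted p = 0.0253). Ppp1r15a was at 59.1 and 57.6 and then 53.9 and 50.3 CPM (-0.16, adjusted p = 0.0407). In each the DMSO libraries lay above the 4-PBA libraries, though the test on these same libraries picked the genes. Atf4 itself was not called at 0.031. With DESeq2 0 of the 7 were called, while in edgeR 5 had an unadjusted p under 0.05, all lower. No share of all tested genes with such a p stands beside that count. Leaving out single libraries gave 1 to 4 calls. The only call without DMSO replicate 1 was Atf4, higher by 0.11 (adjusted p = 0.0101), and Atf3 was called without 4-PBA replicate 1 (-0.44, adjusted p = 0.00162) and Chac1 without DMSO replicate 2 (-0.24, adjusted p = 0.0210). Trib3 was lost without DMSO replicate 1 (adjusted p = 0.214) or 4-PBA replicate 2 (adjusted p = 0.425), and Sesn2 without DMSO replicate 1 (adjusted p = 0.287) or 4-PBA replicate 1 (adjusted p = 0.382). Ppp1r15a was lost without either 4-PBA library, DMSO replicate 1 or either day 0 library (adjusted p = 0.0565 to 0.478). In the comparison of 4-PBA with day 0, Ppp1r15a rose by 0.56, and Asns, Sesn2 and Atf4 fell by 0.29, 0.40 and 0.093, the last of these lost without any of the 4 libraries compared (adjusted p = 0.0745 to 0.207). Atf3 had the largest value of the 7, 0.64, and was not called (adjusted p = 0.0816), but it was with the replicate block (0.62, adjusted p = 9.0e-05), by the DESeq2 Wald test (adjusted p = 0.00665) and without 4-PBA replicate 1 (0.37, adjusted p = 0.000219) or replicate 2 (0.87, adjusted p = 3.64e-12). Its 4-PBA libraries stood far apart, at 41.7 and 29.5 CPM. Trib3 was called without 4-PBA replicate 2 (0.22, adjusted p = 0.0416).

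Around these genes stand 97 tested genes of the same compartment in 5 wider lists. From day 0 to DMSO 40 of them rose and 37 fell, where 33.8% of all tested genes rose and 32.6% fell. In the list of translocation, signal peptidase and oligosaccharyl transferase genes 3 of 23 rose and 14 fell, with a median of -0.21, on the same side as Sec61a1 and Sec61b. In that of ERAD extraction and ubiquitin genes 11 of 21 rose and 6 fell, with a median of 0.21, beside 0.21 for the 10 ERAD genes described above. Glycan trimming gave 5 higher and 3 lower of 11, other folding enzymes 13 and 11 of 28, and sensors, proteases and retrieval receptors 8 and 3 of 14. The smallest adjusted p-values among the rises belonged to Fam8a1, a partner of the HRD1 complex (1.14, SE 0.040), the thioredoxin-like Tmx4 (1.18, SE 0.042) and the ubiquitin-conjugating enzyme gene Ube2g2 (0.72, SE 0.035). Among the falls they belonged to Tmx1 (-0.68), the peroxiredoxin gene Prdx4 (-0.69) and Rpn2 of the oligosaccharyl transferase (-0.45).

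With 4-PBA against DMSO, 4 of the 97 were called, a share near the 4.9% of all tested genes. The 3 higher and 1 lower were the prolyl isomerase genes Ppic (0.14, adjusted p = 0.0102) and Fkbp2 (0.17, adjusted p = 0.0433), Cnpy2 (0.16, adjusted p = 0.0236), and Traf2 (-0.18, adjusted p = 0.0468), which encodes an adaptor of IRE1. By edgeR 21 had an unadjusted p under 0.05, 17 of them higher, with no share of all tested genes to set beside them, and DESeq2 called 2. All 4 lost their calls when 1 library or another was left out. Fkbp2 and Ppic were lost without either 4-PBA library (highest adjusted p = 0.358 and 0.254), Cnpy2 without these or DMSO replicate 1 (highest adjusted p = 0.208), and Traf2 without 4-PBA replicate 1 (adjusted p = 0.545). Fkbp2 and Traf2 were lost also without DMSO replicate 1 (adjusted p = 0.134 and 0.254) or either day 0 library (adjusted p = 0.0720 to 0.0772). The replicate block ended both calls (adjusted p = 0.0503 and 0.0700), as did fitting the DMSO and 4-PBA libraries alone (adjusted p = 0.0702 and 0.0672) and the DESeq2 Wald test (adjusted p = 0.0701 and 0.113). Traf2 was lost also with DESeq2 size factors (adjusted p = 0.0526) and library size only (adjusted p = 0.0594). Against day 0, 41 were higher and 33 lower with 4-PBA, where 33.2% of all tested genes were higher and 32.4% lower. The smallest adjusted p-values were those of Tmx4 (1.19), Fam8a1 (1.06) and Ppic (0.80) among the rises and of Tmx1 (-0.66), Prdx4 (-0.57) and Mogs (-0.64), the first glycan-trimming glucosidase, among the falls.

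Whether counting used strand is not given in the sources used here, and the exons of 11 of the 39 genes overlap a gene of the other strand (GENCODE M21): Hsp90b1, Dnajb9, Manf, Pdia3, Pdia6, Txndc5, Ppib, Sec61a1, Syvn1, Derl2 and Eif2ak3, so their counts are uncertain to that extent, as are those of Rpn2 and Ppp1r15a. Hsp90b1, Manf and Pdia4, and Ube2g2 of the wider lists, overlap a gene of their own strand, which no strand setting separates. With 2 libraries a group, the test borrows its estimate of spread from all genes, and transcript levels say nothing of protein amount or of ER stress itself, neither of which was measured.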

How the data were processed

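Libraries were prepared from DNase-treated total RNA with a directional kit, per the labels' protocols. The authors deposited 1 table of raw counts by gene symbol, not normalised, with a column for each of the 6 libraries and 0 columns of other samples. Build GRCm39 is named, per the submitters' processing notes; the aligner, counting tool, annotation and use of strand are not given in the sources used here. Of the symbols, 13014 had no counts in any library.

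The count models used edgeR 4.0.16 (R 4.3.3): filterByExpr by group, TMM scaling, robust estimateDisp and glmQLFit with 1 mean per group over the 6 libraries, and the quasi-likelihood F test. Adjustment (Benjamini-Hochberg) ran over all 17433 tested genes, and genes under 0.05 were called. CPM was computed after TMM scaling. The standard error (SE) is the size of the log2 fold change divided by the square root of F, and 95% intervals use the total degrees of freedom (3 residual, median prior 30.4). The common biological coefficient of variation was 3.74%. Over all genes together, replicates differed by more than counting noise (chi-square per degree of freedom 3.98, 7.20 and 5.72). Depth also limited the precision for members with fewer counts. For 4-PBA over DMSO the SE was 0.028 for Hsp90b1, 0.074 for Sdf2l1 and 0.11 for Ero1b. All libraries carried batch number 1. The procedure was tested on simulated counts. Alternatives were DESeq2 1.42.0 (its size factors and its Wald test), library size only, no low-count filter, only the 4 libraries compared, a replicate block, and each library left out.

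The 39 genes, the wider lists and the markers were chosen with earlier results of these data known. Values by library were fixed for the genes called between 4-PBA and DMSO, the 5 largest rises and 5 largest falls from day 0 to DMSO, and Hspa5, Hsp90b1, Sdf2l1, Xbp1, Atf6, Ern1 and Eif2ak3; from the wider lists, the 3 called genes with the smallest adjusted p in each direction and all PERK outputs were named. Of 109 wider genes and PERK outputs, 106 were in the table; Ddit3, Srpra and Hm13 were not analysed here. Transcript lengths and overlaps came from GENCODE M21 by symbol (39 of 39 matched, Ero1a and Ero1b through older names) and promoter windows from RefSeq on GRCm38.p6, used for sequence only. Figures were drawn with matplotlib 3.10.9 in Python 3.11.15.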

Additional observations from a re-analysis of the deposited data

How the results depend on the processing

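Over the 12 alternatives, 29 of 38 genes kept their direction and their side of the threshold in every one for DMSO against day 0, 26 for 4-PBA against day 0 and 12 for 4-PBA against DMSO. Calls among the 38 ranged from 27 to 31 and from 22 to 31 in the comparisons with day 0. For 4-PBA against DMSO, where 4 were called, library size only gave 8 (6 higher), DESeq2 size factors 6 (4 higher), the DESeq2 Wald test 3, and leaving out single libraries 0 to 11. With the replicate block 2 were called, since Ern1 and Ero1a missed the threshold in edgeR (adjusted p = 0.0518 and 0.0512), as did Fkbp2 and Traf2 of the wider lists. Deviations of same-numbered libraries from their group means were nearly uncorrelated over all tested genes (-0.028, -0.0031 and -0.012). That correlation weights genes with few counts like the rest, so it cannot exclude that the numbers pair the libraries. Allowing 1 mismatch, chosen after the exact matches were seen, gave an ERSE in 16 of 34 promoters (47.1%, against 1.72% of all genes).

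Some ends of the ranges below passed the test with a library left out. The values that changed sign had not passed it with all libraries and TMM scaling. For DMSO over day 0 these were Hspa5 (-0.0025 with DESeq2 size factors, -0.022 with library size only, -0.0025 with the Wald test, -0.0011 with only the 4 libraries compared, and -0.054 to 0.065 with single libraries left out) and, leaving out single libraries, Hyou1 (-0.072 to 0.032), Txndc5 (-0.023 to 0.0047), Chac1 (-0.016 to 0.16) and Cnpy2 (-0.047 to 0.015). For 4-PBA over day 0 they were Trib3 (-0.015 to 0.22) and Traf2 (-0.12 to 0.028), leaving out single libraries. For 4-PBA over DMSO they were Edem3 (0.0032 with library size only), Mogs (0.0034 with library size only) and Derl1 (-8.3e-05 without the filter). Leaving out single libraries did so for Hspa5 (-0.033 to 0.086), Dnajb9 (-0.031 to 0.0022), Dnajb11 (-0.025 to 0.038), Canx (-0.051 to 0.0039), P4hb (-0.028 to 0.048), Pdia3 (-0.0027 to 0.031), Sec61a1 (-0.066 to 0.048), Edem3 (-0.017 to 0.0046), Sel1l (-0.040 to 0.0010), Syvn1 (-0.11 to 0.041), Derl1 (-0.012 to 0.017), Derl2 (-0.087 to 0.038), Atf4 (-0.046 to 0.11), Atf3 (-0.44 to 0.064), Tmx4 (-0.024 to 0.042) and Mogs (-0.032 to 0.020). The causes were not tested.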
